A study of Mus musculus with 24 samples.

Results

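The Hox cluster genes were followed through a mouse embryonic stem cell (ESC) experiment by taking rows of the deposited expression table whose symbol was Hox, a cluster letter from a to d and a paralog number, with nothing after it. Described here are 38 genes among the 54242 symbols of the table, of which 10 were Hoxa, 10 Hoxb, 9 Hoxc and 9 Hoxd genes. In the mouse annotation of build GRCm38, the Hoxa genes described lay on chromosome 6 from 52162417 to 52260880, the Hoxb genes on chromosome 11 from 96194316 to 96368256, the Hoxc genes on chromosome 15 from 102921103 to 103036852 and the Hoxd genes on chromosome 2 from 74668310 to 74765142. CGR8 cells, a feeder-independent mouse ESC line, had received a control siRNA (siControl) or an siRNA against Rsl24d1 (siRSL24D1), a gene for an assembly factor of the large ribosomal subunit. They were collected either in serum with LIF before any retinoic acid (ESC), or after 4 days in serum with 10 nM retinoic acid (RA). For those 4 days LIF was left out, and the methods of the study describe plating at low density. No group had these 4 days without retinoic acid. Retinoic acid, LIF removal, plating density and time thus cannot be told apart, and RA below names this whole change of culture. At each time, one pair of groups carried an empty vector without doxycycline and the other, called the rescue, carried the vector RSL24D1_OE with doxycycline, so that vector, doxycycline and ectopic Rsl24d1 cannot be told apart. This made 8 groups of 3 libraries. The labels did not say whether the 3 came from separate cultures, whereas the study calls the 3 points per condition in its figure of gene signatures biological replicates. How the cultures were kept apart is not described. The p-values thus measure the spread between these libraries, part of which may be technical.

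Hox genes encode homeodomain transcription factors that give positions along the head to tail axis their identity. Within each cluster the genes stand in the order in which they are used along that axis, with low paralog numbers in the hindbrain and high numbers in the tail, the distal limbs and the urogenital tract. In pluripotent cells the clusters are held silent by Polycomb complexes, and RA bound to its nuclear receptors is a classical inducer of their low-numbered end.

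RefSeq promoter windows show what lies at an annotated start of some of the genes that rose with RA in the control cells. Hoxb2 also rose and is not shown. The windows of Hoxa3, Hoxb4 and Hoxd8 are printed 5′ to 3′, from 250 bases before to 50 bases after the start site, in build GRCm38.p6. They lie at chr6:52213018-52213317 on the minus strand, chr11:96318017-96318316 on the plus strand and chr2:74704365-74704664 on the plus strand. Capitals mark the hexamer AGGTCA, which retinoic acid receptors recognise, or its reverse complement TGACCT.
Hoxa3: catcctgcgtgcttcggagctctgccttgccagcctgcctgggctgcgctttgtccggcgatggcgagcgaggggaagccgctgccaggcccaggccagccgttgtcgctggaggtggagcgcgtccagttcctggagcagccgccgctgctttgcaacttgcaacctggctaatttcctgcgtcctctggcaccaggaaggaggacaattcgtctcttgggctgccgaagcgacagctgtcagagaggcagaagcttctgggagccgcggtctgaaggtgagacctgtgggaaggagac
Hoxb4: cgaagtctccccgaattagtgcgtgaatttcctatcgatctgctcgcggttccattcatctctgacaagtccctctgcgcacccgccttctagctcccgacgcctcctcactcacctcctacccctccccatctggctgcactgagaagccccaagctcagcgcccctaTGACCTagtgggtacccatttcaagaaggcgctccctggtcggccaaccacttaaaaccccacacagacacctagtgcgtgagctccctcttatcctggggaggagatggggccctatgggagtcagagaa
Hoxd8: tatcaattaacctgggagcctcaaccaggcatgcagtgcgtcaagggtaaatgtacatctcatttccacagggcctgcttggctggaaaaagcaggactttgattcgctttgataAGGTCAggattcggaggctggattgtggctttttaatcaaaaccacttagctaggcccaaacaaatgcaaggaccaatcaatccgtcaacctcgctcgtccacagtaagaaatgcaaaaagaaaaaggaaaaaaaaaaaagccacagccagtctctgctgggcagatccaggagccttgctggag

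In Hoxb4 the hexamer read on the minus strand and began at position -81 from the start site, in Hoxd8 it read on the plus strand and began at position -135, and the Hoxa3 window did not hold these letters. That window lies at the far 5′ end of Hoxa3, which is annotated from 52169062 to 52213336. Which start sites were used in these cells was not tested. RefSeq windows were matched for 22 Hox genes, 24 windows in all. Searched on both strands, AGGTCA was in 7 of them (29.2%), those of Hoxa5, Hoxb4, Hoxc4, Hoxd3, Hoxd4, Hoxd8 and Hoxd10, against 16.26% of the 32851 windows of the whole table. As direct repeats spaced by 5 bases (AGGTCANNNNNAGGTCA) or 2 bases (AGGTCANNAGGTCA) it was in 0 of 24, against 0.01% of all windows for each form. The related hexamer AGTTCA was in 2 of 24 (8.3%, against 13.99%). The letters TGATNNAT, a site shared by Pbx and Hox proteins, were in 4 (16.7%, against 8.85%), the Meis letters TGACAG in 2 (8.3%, against 19.18%), the CCAAT box in 15 (62.5%, against 37.41%) and TATAAA in 4 (16.7%, against 13.62%). The Hox windows had a median of 57.7% G and C and 14 CpG, against 52.7% and 7 over all windows. These are matches of letters and not measured sites.

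The targeted gene was checked in every library on the TPM scale, which scales transcript abundance for length and library total. In ESCs without rescue, Rsl24d1 was at 148, 139.7 and 136 TPM with siControl and 36.6, 37.9 and 32.7 with siRSL24D1, that is 25.3% of the control mean (log2 difference -1.95 (SE 0.07, adjusted p = 3.2e-14), limma). With the rescue the ESC values were 158, 149.7 and 147 TPM and 103, 96.1 and 121 TPM, 70.6% of the control. After RA without rescue they were 95.9, 101 and 96.7 TPM with siControl and 89.3, 96.3 and 99.8 with siRSL24D1, which overlapped (log2 difference -0.04 (SE 0.07, adjusted p = 0.66)). The label of the RA libraries thus refers to the transfection before RA and not to the Rsl24d1 mRNA at collection. With rescue after RA they were 126, 114 and 114 and 134, 131 and 127 TPM. The 6 pluripotency markers (Pou5f1, Sox2, Nanog, Zfp42, Esrrb, Klf4) summed to 2367 to 2409 TPM in siControl ESCs and still to 1536 to 1633 after RA. All 6 mesoderm markers were under 1 TPM in all 4 RA groups. The neural markers summed to 93.5 to 101 TPM before and 37.0 to 37.3 after RA in the same cells. The 5 fibroblast markers summed to 37.3 to 46.9 TPM before and 92.1 to 104 after RA, where Col1a2 and Postn rose and Thy1 fell, and the 6 extraembryonic endoderm markers to 11.4 to 14.5 and 17.8 to 23.2 TPM, where Gata6 and Dab2 rose. The part of these cell types in the Hox response to RA was not tested. The deposited table gave log2(TPM + 1) without counts, so the depth behind each value is unknown. A difference on that scale understates the change of a gene at low TPM.

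Hox mRNA was scarce throughout. Summed over the 38 genes it was 3.95 to 4.57 TPM in siControl ESCs, 7.16 to 7.70 in siRSL24D1 ESCs, 13.0 to 13.7 after RA with siControl and 26.9 to 28.8 after RA in the libraries labelled siRSL24D1. In the rescue the same order held, with 3.48 to 3.78, 4.50 to 5.50, 13.6 to 14.3 and 20.0 to 21.2 TPM. No library of one of these 8 groups entered the range of another except between the rescued and unrescued siControl groups after RA, and between unrescued siControl and rescued siRSL24D1 ESCs. In bulk RNA, more cells that express a gene and more RNA in each cell cannot be told apart.

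**Figure D1:**
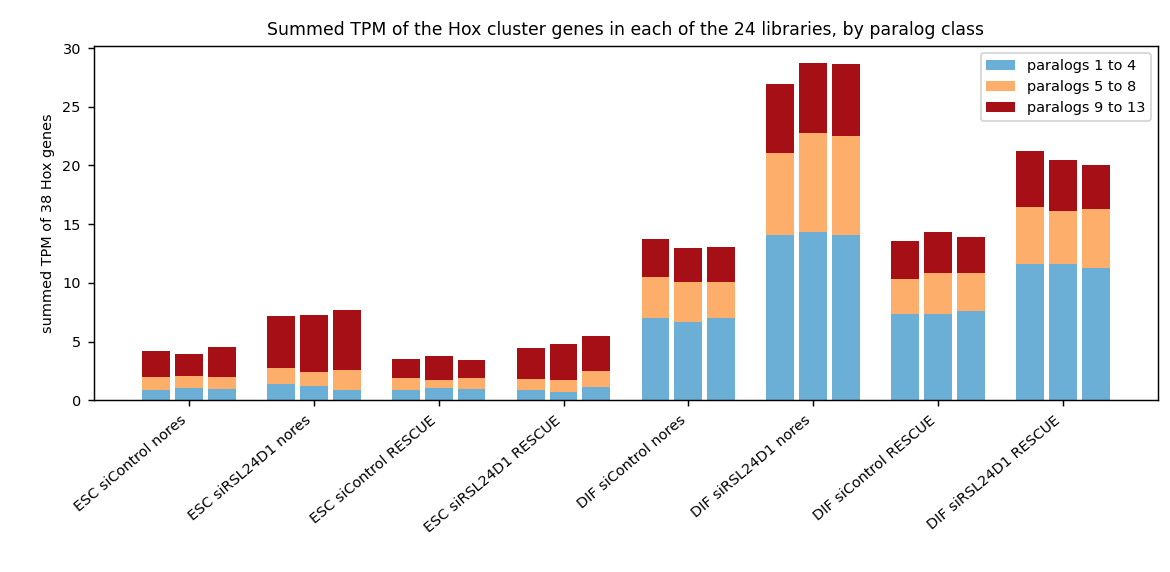
Summed TPM of 38 Hox genes in each of the 24 libraries, one bar per library in its group, stacked by paralogs 1 to 4, paralogs 5 to 8 and paralogs 9 to 13. The RA libraries labelled siRSL24D1 without rescue reach 26.9 to 28.8 TPM, and paralogs 9 to 13 make the largest part of the bars of all 4 ESC groups, at 1.89 to 2.60 TPM in siControl and 4.42 to 5.15 TPM in siRSL24D1 ESCs without rescue.

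Of the 38 genes, 11 reached a group mean log2(TPM + 1) of at least 1 in some group: Hoxa2, Hoxa3, Hoxa5, Hoxb2, Hoxb3, Hoxb4, Hoxb9, Hoxc4, Hoxc6, Hoxc13 and Hoxd8. Their highest single library held 4.77 TPM, of Hoxb2. Another 10 peaked between 0.5 and 1 on that scale (Hoxa4, Hoxa7, Hoxb7, Hoxb8, Hoxc5, Hoxc8, Hoxc9, Hoxd4, Hoxd9, Hoxd13; at most 0.95 TPM in any library). The remaining 17 stayed under 0.5 in every group mean, at most 0.50 TPM in any library, among them Hoxb1, Hoxd1, Hoxa9 to Hoxa13 and most high-numbered Hoxc and Hoxd genes. By paralog number, 6 of the 11 genes numbered 1 to 4, 3 of the 11 numbered 5 to 8 and 2 of the 16 numbered 9 to 13 reached a mean of 1. The group mean TPM was highest in the RA libraries labelled siRSL24D1 without rescue for 25 of the 38 genes and in those with rescue for 7, in siControl rescue ESCs for 4 (Hoxb13, Hoxc11, Hoxc12, Hoxd12, all under 0.2 TPM) and in siRSL24D1 ESCs for 2, Hoxa11 and Hoxc13. How all genes of the table divide over the groups in this way was not counted, so these counts describe the 38 only.

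**Figure D2:**
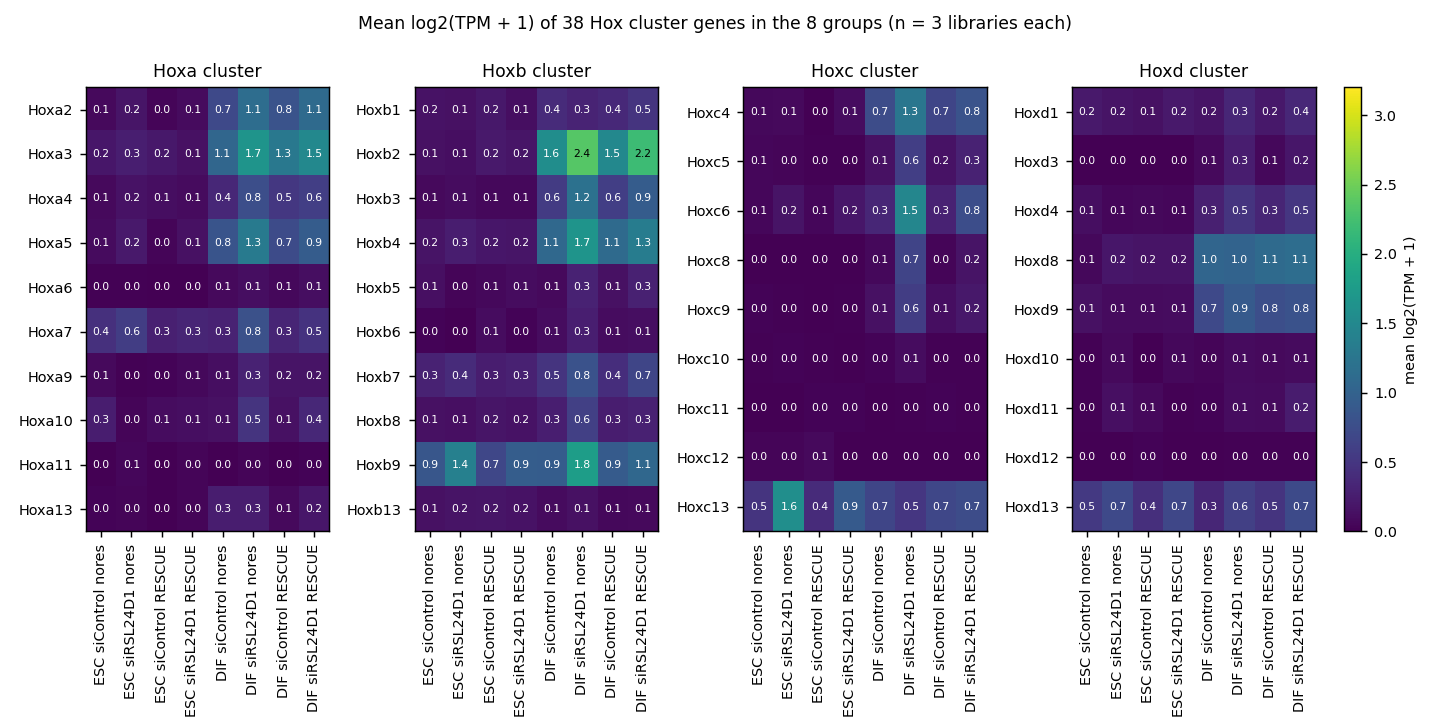
Mean log2(TPM + 1) over 3 libraries of each of 38 Hox genes (rows, by cluster and paralog number) in the 8 groups (columns, where DIF marks the RA groups and nores the groups without rescue), with brighter cells for higher values. Hoxb2 is the brightest row in the 4 RA groups, low-numbered genes of Hoxa and Hoxb brighten after RA, and Hoxc13 is brightest in the siRSL24D1 ESCs, with a mean of 1.58.

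Differences were tested with limma on log2(TPM + 1) over the 16447 genes with a mean of at least 0.5 over the 24 libraries. A gene was said to rise or fall when its Benjamini-Hochberg adjusted p was under 0.01 and its change over 1.8-fold. Of the 38, the filter let 9 through (Hoxa2, Hoxa3, Hoxa5, Hoxb2, Hoxb4, Hoxb9, Hoxc13, Hoxd8 and Hoxd13). Since a gene can pass it through the groups where it is high, counts over these 9 describe them only. Counts at an unadjusted p under 0.05 are given for the 9 alone, and the share of all genes at that limit was not counted. A second fit without the filter took all 38, among 35764 genes above 0 in a library. Overlapping genes limit some values: exons of Hoxb2 and Hoxb3 face the antisense gene Hoxb3os, 9 of the 38 in all face an antisense exon, and 4 (Hoxc5 with Hoxc10, Hoxd3 with Hoxd4) share exon bases with another Hox gene on the same strand.

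In siControl cells, Hoxa3, Hoxb2, Hoxb4 and Hoxd8 rose over 4 days of RA without LIF, and none of the 9 tested Hox genes fell. Among all genes tested, 6.77% rose and 8.24% fell. In sums, which were not tested, the ratio followed paralog number. The summed TPM of paralogs 1 to 4 was 7.15 times that of the ESCs, that of paralogs 5 to 8 was 3.21 times and that of paralogs 9 to 13 was 1.36 times. All 3 RA libraries lay above all 3 ESC libraries for 9 of 11, 7 of 11 and 4 of 16 genes of these classes. The filter divided these 20 genes into 7 of the 9 tested, where 28.9% of all tested genes did so, and 13 of the 29 untested, where 8.26% of all untested genes above 0 did so. Without the filter, 14 of the 38 passed the adjusted p limit upward, as did 12.4% of all genes in that fit, and the same 4 genes rose (3.11%), with a median log2 difference of 0.086 over the 38 and 0.742 over the 9 tested. The median over all tested genes was -0.104, a shift to be read beside every value of this comparison.

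Among the genes of the hindbrain end, Hoxb2, which acts in the hindbrain and facial nerve, went from 0.113, 0.131 and 0.0776 TPM in the 3 ESC libraries to 2.04, 2.05 and 1.79 after RA (log2 difference 1.42 (SE 0.08, adjusted p = 1.5e-11)). Its groups were far apart, and the means differed 18.3-fold in TPM. Hoxa3, needed for the thymus, the parathyroid and neck structures, stood at 0.113, 0.231 and 0.0997 TPM before and 1.17, 1.01 and 1.06 after RA (log2 difference 0.86 (SE 0.09, adjusted p = 7.6e-08)). Hoxb4, known for its action on blood progenitors, stood at 0.108, 0.110 and 0.144 and 0.963, 1.16 and 1.24 TPM (log2 difference 0.92 (SE 0.08, adjusted p = 8.3e-09)). The call of Hoxa3 lay at the fold limit and was lost without siControl ESC replicate 1 (0.84) or replicate 3 (0.83) or RA replicate 1 (0.83), whereas those of the other 3 genes held without each library.

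Further low-numbered genes moved the same way at lower levels. Hoxa2, which patterns the second branchial arch, was at 0.0339, 0.0491 and 0.101 TPM in ESCs and 0.631, 0.554 and 0.708 after RA, a difference of 0.62 (SE 0.08, adjusted p = 8.5e-07) that passed the adjusted p limit but not the fold limit. Hoxb3, a hindbrain gene under the filter, was at 0.0714, 0.0392 and 0.0663 and 0.395, 0.519 and 0.482 TPM, with a log2 difference of 0.47 (SE 0.08, adjusted p = 9.1e-05) in the fit without filter. Hoxc4 gave 0, 0.0534 and 0.0880 and 0.602, 0.738 and 0.666 TPM, and a difference of 0.67 (SE 0.05, adjusted p = 1.6e-09) in that fit. None of these 3 genes had overlapping groups. Hoxb1 and Hoxd1, at the head end of their clusters, reached no more than 0.375 and 0.177 TPM in any RA library of siControl cells. In the fit without filter Hoxb1 was higher past the adjusted p limit only (0.23 (SE 0.07, adjusted p = 0.0099)), and Hoxd1 was not past it (-0.05 (SE 0.07, adjusted p = 0.68)).

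In the middle of the clusters, Hoxd8 went from 0.0655, 0.0941 and 0 to 1.08, 0.956 and 1.15 TPM (log2 difference 0.97 (SE 0.09, adjusted p = 2.2e-08)). Its neighbour Hoxd9 went from 0.141, 0.103 and 0.0810 to 0.635, 0.594 and 0.656 TPM (log2 difference 0.55 (SE 0.07, adjusted p = 1.4e-06) without filter). Hoxa5, which acts in the lung and the neck and thorax skeleton, was at 0.114, 0.0274 and 0.0549 TPM before and 0.831, 0.759 and 0.752 after RA and passed the adjusted p limit only (log2 difference 0.74 (SE 0.09, adjusted p = 2.5e-07)). These 3 genes had separate groups, while Hoxc6 (0, 0.118 and 0 TPM before, 0.393, 0.185 and 0.238 after) was separate but did not pass the limit (log2 difference 0.29 (SE 0.09, adjusted p = 0.015) without filter). At the tail end, Hoxb9 was at 0.853, 0.633 and 0.969 TPM in ESCs and 0.956, 0.930 and 0.859 after RA, with overlapping groups (log2 difference 0.08 (SE 0.11, adjusted p = 0.53)). Hoxc13, a gene of hair and nails, went from 0.425, 0.345 and 0.421 to 0.604, 0.568 and 0.605 TPM without passing the limit (log2 difference 0.19 (SE 0.08, adjusted p = 0.031)). Hoxd13, a gene of the digits, was lower in all 3 RA libraries (0.477, 0.346 and 0.521 TPM before, 0.212, 0.319 and 0.279 after; log2 difference -0.19 (SE 0.07, adjusted p = 0.021)).

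**Figure D3:**
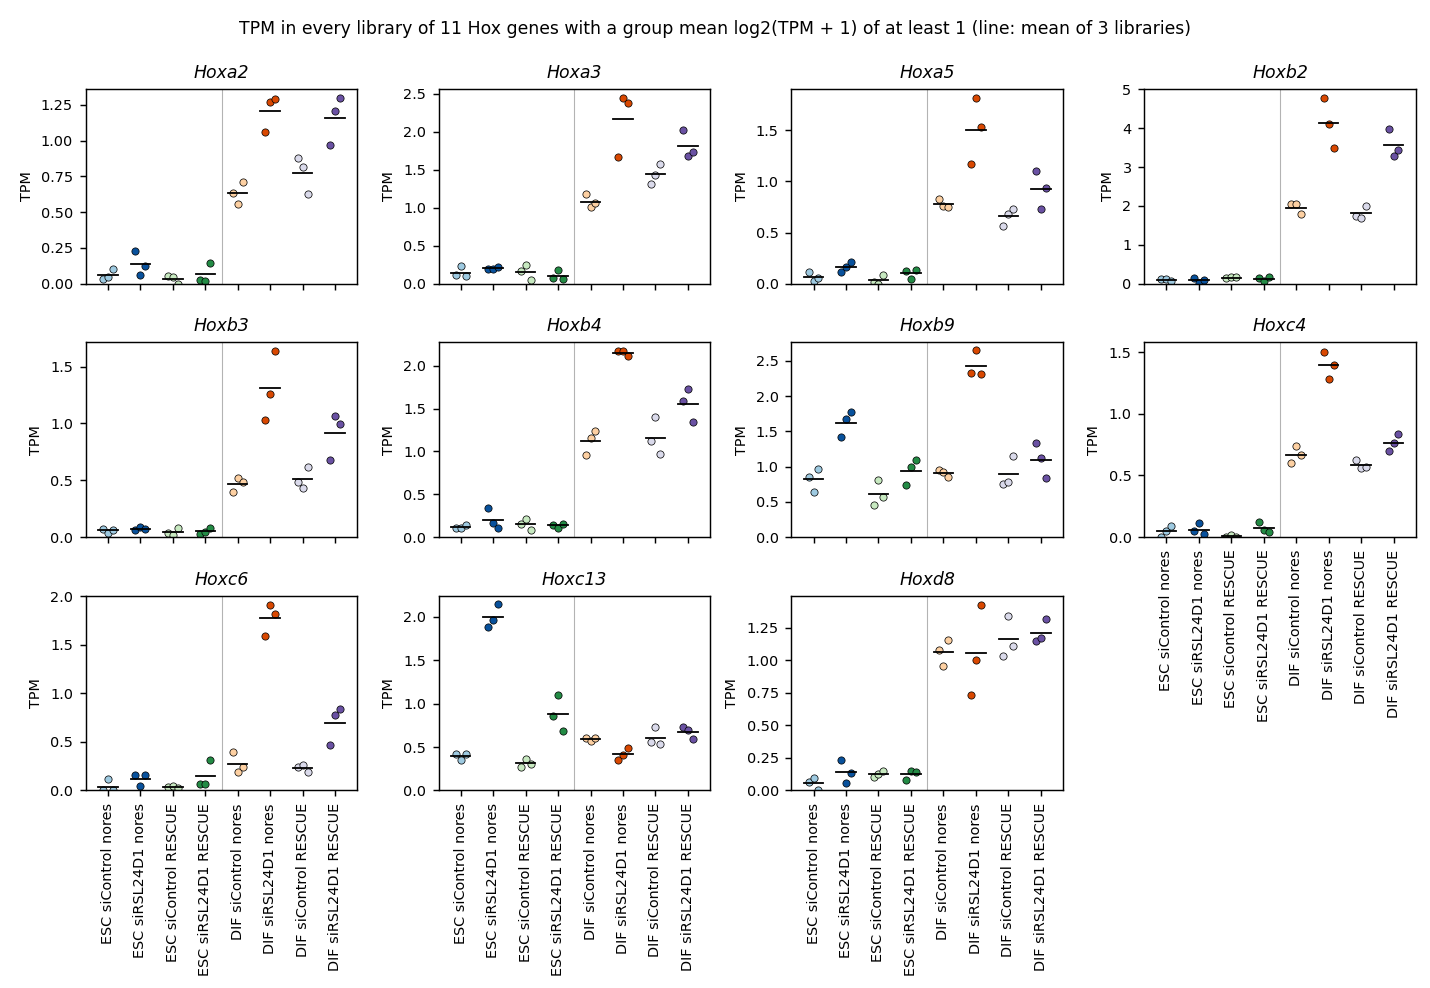
TPM in each of the 24 libraries (points) of 11 Hox genes with a group mean log2(TPM + 1) of at least 1, one panel per gene with its own vertical axis from 0, with the group mean as a short line and the RA groups (DIF) right of the grey line. The ESC and RA groups of Hoxb2, Hoxa3 and Hoxb4 are cleanly separate, while the highest points of Hoxc13, 1.88, 1.97 and 2.15 TPM, are those of the siRSL24D1 ESCs.

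In the other 3 arms largely the same genes changed with RA, each arm set against its own ESC group. In libraries labelled siRSL24D1 without rescue, Hoxa2, Hoxa3, Hoxa5, Hoxb2 and Hoxb4 rose and Hoxc13 fell, against 7.93% of tested genes that rose and 6.22% that fell. With siControl and rescue, Hoxa3, Hoxb2, Hoxb4 and Hoxd8 rose and none fell (10.7% and 4.82% of tested genes), where the median of all genes was shifted by 0.12. With siRSL24D1 and rescue, Hoxa2, Hoxa3, Hoxb2, Hoxb4 and Hoxd8 rose and none fell (9.34% and 5.57%). Hoxb2 had a log2 difference of 2.23 in the libraries labelled siRSL24D1, 1.28 in the siControl rescue and 2.01 in the siRSL24D1 rescue, with SE 0.08 in each. A call at the fold limit was that of Hoxb4 in the siControl rescue, 0.91, lost without RA replicate 2 (0.83). Just under that limit were Hoxd8 in the libraries labelled siRSL24D1, 0.83, which passed it without ESC replicate 1 (0.89) or RA replicate 1 (0.95), and Hoxa5 in the siRSL24D1 rescue, 0.80, which passed it without RA replicate 2 (0.87). The genes called in one arm and not in another thus depended in part on single libraries.

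Without the filter, the number of the 38 that passed the adjusted p limit upward was 14 in siControl cells as given above, 23 in the libraries labelled siRSL24D1 (15.1% of all genes), 13 in the siControl rescue (18.3%) and 20 in the siRSL24D1 rescue (16.7%). Within the filter the siControl rescue had 7 of 9 past that limit, upward (36.8% of tested genes). In the libraries labelled siRSL24D1, 8 genes rose in that fit (3.72% of all genes), the additional ones being Hoxb3 (1.09 (SE 0.08, adjusted p = 1.8e-09)), Hoxc4 (1.18 (SE 0.05, adjusted p = 5.7e-13)) and Hoxc6 (1.31 (SE 0.09, adjusted p = 7.8e-10)). Groups of ESC and RA libraries were separate upward for 26 of the 38 there (10 of 11 genes numbered 5 to 8), 7 of the 9 tested and 19 of the 29 untested, where 34.3% of tested and 9.02% of untested genes were so. It was 18 in the siControl rescue, 7 tested and 11 untested (43.8% and 11.3%), and 22 in the siRSL24D1 rescue, 6 tested and 16 untested (38.9% and 10.4%).

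Before RA, the Rsl24d1 siRNA was accompanied by a higher level of a gene at the tail end of Hoxc. Of the 9 tested genes Hoxc13 rose and none fell, against 3.4% of all tested genes that rose and 0.772% that fell. Hoxc13 was at 0.425, 0.345 and 0.421 TPM in the siControl libraries and 1.88, 1.97 and 2.15 in the siRSL24D1 libraries (log2 difference 1.10 (SE 0.08, adjusted p = 4.3e-10)), a 5.04-fold difference of mean TPM. The libraries of each group were tight and the groups far apart. Hoxb9 was at 0.853, 0.633 and 0.969 and 1.42, 1.67 and 1.77 TPM, separate in every library, and passed the adjusted p limit but not the fold limit (log2 difference 0.53 (SE 0.11, adjusted p = 0.00054)), so that 2 of the 9 passed the former, upward, as did 14.3% of tested genes. With 0.1 in place of 1 added to the TPM, Hoxb9 also passed the fold limit (0.92).

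The genes that rose with RA in siControl cells had other values. Hoxb2 was at 0.154, 0.0207 and 0.0984 TPM in the siRSL24D1 ESCs (log2 difference -0.02 (SE 0.08, adjusted p = 0.86)). Hoxa3 was at 0.196, 0.200 and 0.222 TPM (0.07 (SE 0.09, adjusted p = 0.56)) and Hoxb4 at 0.335, 0.163 and 0.108 TPM (0.10 (SE 0.08, adjusted p = 0.39)), and none of these 3 passed the adjusted p limit. The summed TPM of paralogs 1 to 4 was 1.21 times the siControl value with overlapping libraries, that of paralogs 5 to 8 1.38 times and that of paralogs 9 to 13 2.14 times. In siRSL24D1 ESCs, Hoxc13 made 27.1% of the sum over the 38 genes, Hoxb9 22.0% and Hoxd13 8.6%, whereas in siControl ESCs they made 9.4%, 19.3% and 10.6%. Over the 38, 6 genes were separate upward (Hoxa4, Hoxa7, Hoxb9, Hoxc13, Hoxd11, Hoxd13) and 2 downward (Hoxa10, Hoxb5). Of these, 3 of the 9 tested lay upward, where 23.8% of all tested genes did, and 3 of the 29 untested upward and 2 downward, where 6.44% and 2.96% of untested genes did. The median over the 9 tested was 0.115, against -0.011 over all tested genes. Markers of other cell types moved with the siRNA in these ESCs. The pluripotency sum was 2367 to 2409 TPM with siControl and 1717 to 1754 with siRSL24D1, where Zfp42 and Esrrb fell. The 5 trophoblast markers summed to 32.2 to 36.0 and 46.8 to 51.2 TPM, the 4 definitive endoderm markers to 0.910 to 1.57 and 3.01 to 3.10 and the 6 mesoderm markers to 14.7 to 16.2 and 7.67 to 11.2, with 0 tested members of these 3 lists called. The part of these markers in the Hox differences was not tested.

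Noncoding genes and neighbours of the clusters moved unevenly. Hotairm1, a noncoding RNA gene of the Hoxa cluster, was at 2.56, 0.842 and 2.51 TPM in siControl and 4.19, 5.98 and 5.36 in siRSL24D1 ESCs and rose (log2 difference 1.11 (SE 0.30, adjusted p = 0.0055)), though one control library lay far below the others. Exons of another gene face its own on the other strand, and the share of its reads that this could add was not tested. Ttll6, a tubulin polyglutamylase gene 28.9 kb from the tail end of the Hoxb cluster, rose from 2.93, 3.07 and 3.05 to 14.3, 12.9 and 14.2 TPM (log2 difference 1.88 (SE 0.06, adjusted p = 1.5e-14)). Hoxb13, the Hox gene nearest to it, stayed at 0.0906 to 0.133 and 0.0850 to 0.147 TPM in the same groups. None of the other tested neighbours, 3 around Hoxa, 3 more around Hoxb, 5 around Hoxc and 2 around Hoxd, rose or fell.

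With the rescue, the siRNA difference in ESCs was smaller for Hoxc13. None of the 9 tested Hox genes rose or fell with limma (3 were higher at an unadjusted p under 0.05, and 1.17% of all tested genes rose and 0.188% fell). Hoxc13 was at 0.273, 0.360 and 0.299 TPM with siControl and 0.857, 1.10 and 0.688 with siRSL24D1. The groups were still separate and passed the adjusted p limit only, as 8.1% of tested genes did upward (log2 difference 0.52 (SE 0.08, adjusted p = 3.7e-05)). Set against siRSL24D1 ESCs without rescue, the rescued ones were lower in all 3 libraries for Hoxc13 and for Hoxb9 (1.42, 1.67 and 1.77 TPM without and 0.733, 0.993 and 1.09 with rescue). The log2 differences were -0.68 (SE 0.08, adjusted p = 4.1e-06) for Hoxc13 and -0.44 (SE 0.11, adjusted p = 0.0058) for Hoxb9, both past the adjusted p limit, as 12.2% of tested genes were downward, and short of the fold limit. Hoxb9 was no longer past the adjusted p limit with 0.1 added to the TPM, without the filter or after median of ratios scaling (adjusted p = 0.013, 0.015 and 0.016, limma). In this comparison 0 of 9 rose or fell (2 lower at an unadjusted p under 0.05), 0.0304% of all tested genes rose and 0.249% fell, and the median of all tested genes was shifted by -0.111. Tested directly, the siRNA difference was smaller with the rescue than without for Hoxc13 (-0.59 (SE 0.11, adjusted p = 0.0027)), again past the adjusted p limit only and no longer past it with 0.1 added to the TPM (adjusted p = 0.053), where 1.18% of tested genes were past it downward, 0.0243% rose and 0.103% fell. These comparisons share the siRSL24D1 groups and are not independent of each other. In the rescued siRSL24D1 ESCs Rsl24d1 itself stood at 70.6% of its rescued control.

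After RA, the libraries labelled siRSL24D1 held more Hox mRNA than the siControl libraries over most of the 4 clusters. None of the 9 tested genes rose or fell on the log2(TPM + 1) scale, while 7 were higher past the adjusted p limit (Hoxa2, Hoxa3, Hoxa5, Hoxb2, Hoxb4, Hoxb9 and Hoxd13). The added 1 TPM weighs on this count. As plain ratios of mean TPM the difference was over 1.8-fold for all 7, from 1.91 for Hoxa2 to 2.66 for Hoxb9, and with 0.1 added in place of 1, Hoxa3, Hoxb2, Hoxb4 and Hoxb9 rose. Neither measure was counted over all genes, and the shares that follow are those with 1 added. Among all tested genes 1.45% rose, 0.182% fell, 24.9% were higher past the adjusted p limit alone and 6.04% lower. At an unadjusted p under 0.05, 7 of the 9 were higher and 1, Hoxc13, lower, where the share of all tested genes was not counted. Without the filter, 19 of the 38 were higher past that limit and 0 lower, against 10.3% and 2.49% of all genes in that fit. Hoxc6 rose, as 0.674% of them did. The 19 were 8 of the 11 genes numbered 1 to 4, 7 of the 11 numbered 5 to 8 and 4 of the 16 numbered 9 to 13, or 6 of 10 Hoxa, 6 of 10 Hoxb, 5 of 9 Hoxc and 2 of 9 Hoxd genes. The median of the 9 tested was 0.483 against 0.129 over all tested genes, and 0.215 over the 38 against 0.014 over all genes of the fit without filter, and each value is to be read against that shift of the whole table. After median of ratios scaling, 6 of the 7 were still past the adjusted p limit, all but Hoxd13, and with 0.1 added to the TPM 5 of the 7, all but Hoxa2 and Hoxa5. As given above, Rsl24d1 mRNA did not differ between these groups.

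On the log2(TPM + 1) scale, the largest single difference was that of Hoxc6. This gene of the thorax was at 0.393, 0.185 and 0.238 TPM with siControl and 1.59, 1.91 and 1.82 in the libraries labelled siRSL24D1 (log2 difference 1.13 (SE 0.09, adjusted p = 1e-07) without filter). Its neighbours followed at lower levels. Hoxc4 was at 0.602, 0.738 and 0.666 and 1.51, 1.28 and 1.40 TPM (0.52 (SE 0.05, adjusted p = 7e-07)), Hoxc8 at 0.0535, 0.0824 and 0.0141 and 0.551, 0.674 and 0.491 (0.58 (SE 0.03, adjusted p = 9.2e-10)) and Hoxc9 at 0.0954, 0.118 and 0.0944 and 0.555, 0.461 and 0.458 (0.44 (SE 0.02, adjusted p = 7.3e-10)). No library of these 4 genes overlapped, and the summed TPM of Hoxc was 2.89 times the siControl value, against 2.10 for Hoxa, 2.17 for Hoxb and 1.44 for Hoxd. Whether these ratios differ between clusters was not tested. Hoxc13, at the tail end of the same cluster, went the other way, with 0.604, 0.568 and 0.605 TPM and 0.355, 0.411 and 0.486 TPM, separate but not past the limit (log2 difference -0.17 (SE 0.08, adjusted p = 0.073)).

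Among the hindbrain genes, Hoxb2 was at 2.04, 2.05 and 1.79 TPM with siControl and 4.77, 4.11 and 3.50 in the libraries labelled siRSL24D1 (log2 difference 0.79 (SE 0.08, adjusted p = 9.6e-07)). Hoxa3 was at 1.17, 1.01 and 1.06 and 1.66, 2.44 and 2.38 TPM (0.59 (SE 0.09, adjusted p = 5.9e-05)), and Hoxb4 at 0.963, 1.16 and 1.24 and 2.17, 2.17 and 2.11 TPM (0.57 (SE 0.08, adjusted p = 3.4e-05)). All 3 genes were separate, as were Hoxa2 (0.44 (SE 0.08, adjusted p = 0.00026)), Hoxa5 (0.48 (SE 0.09, adjusted p = 0.00024)) and, without filter, Hoxb3 (0.65 (SE 0.08, adjusted p = 1.7e-05)). Hoxb9 was at 0.956, 0.930 and 0.859 and 2.32, 2.65 and 2.32 TPM, the largest tested difference (0.84 (SE 0.11, adjusted p = 8.9e-06)), just under the fold limit. It passed the fold limit without siControl RA replicate 1 (0.86), or without replicate 1 (0.86) or replicate 3 (0.86) of the libraries labelled siRSL24D1, and Hoxb2 did so without the last of these (0.88). Hoxd8 was the exception among the genes that rose with RA in siControl cells, with 1.08, 0.956 and 1.15 TPM and 0.730, 1.00 and 1.42 TPM in overlapping groups (-0.02 (SE 0.09, adjusted p = 0.88)).

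Counted over the 38 genes, all 3 libraries labelled siRSL24D1 lay above all 3 siControl libraries for 25 genes and below for 1, Hoxc13, as 11.3% of tested genes were below. Among the tested it was 7 of 9 upward, where 37.1% of all tested genes were so, and among the untested 18 of 29, where 6.64% of untested genes above 0 were. The 25 were 10 of 11 genes numbered 1 to 4, all but Hoxb1, 8 of 11 numbered 5 to 8 and 7 of 16 numbered 9 to 13. Markers of other cell types moved with this difference. The 6 extraembryonic endoderm markers summed to 17.8 to 23.2 TPM with siControl and 36.1 to 47.5 in the libraries labelled siRSL24D1, with Sox7 and Afp under 1 TPM, and Gata6, Dab2 and Lama1 rose. The 5 fibroblast markers summed to 92.1 to 104 and 163 to 226 TPM, where Col1a1 and Postn rose, the 6 neural markers to 37.0 to 37.3 and 48.7 to 59.9 TPM, where Nes rose, and the 5 trophoblast markers to 41.2 to 41.9 and 51.4 to 64.3 TPM with Cdx2 and Elf5 under 1 TPM. The pluripotency sum was 1536 to 1633 and 1537 to 1662 TPM. The part of these markers in the Hox differences was not tested.

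**Figure D4:**
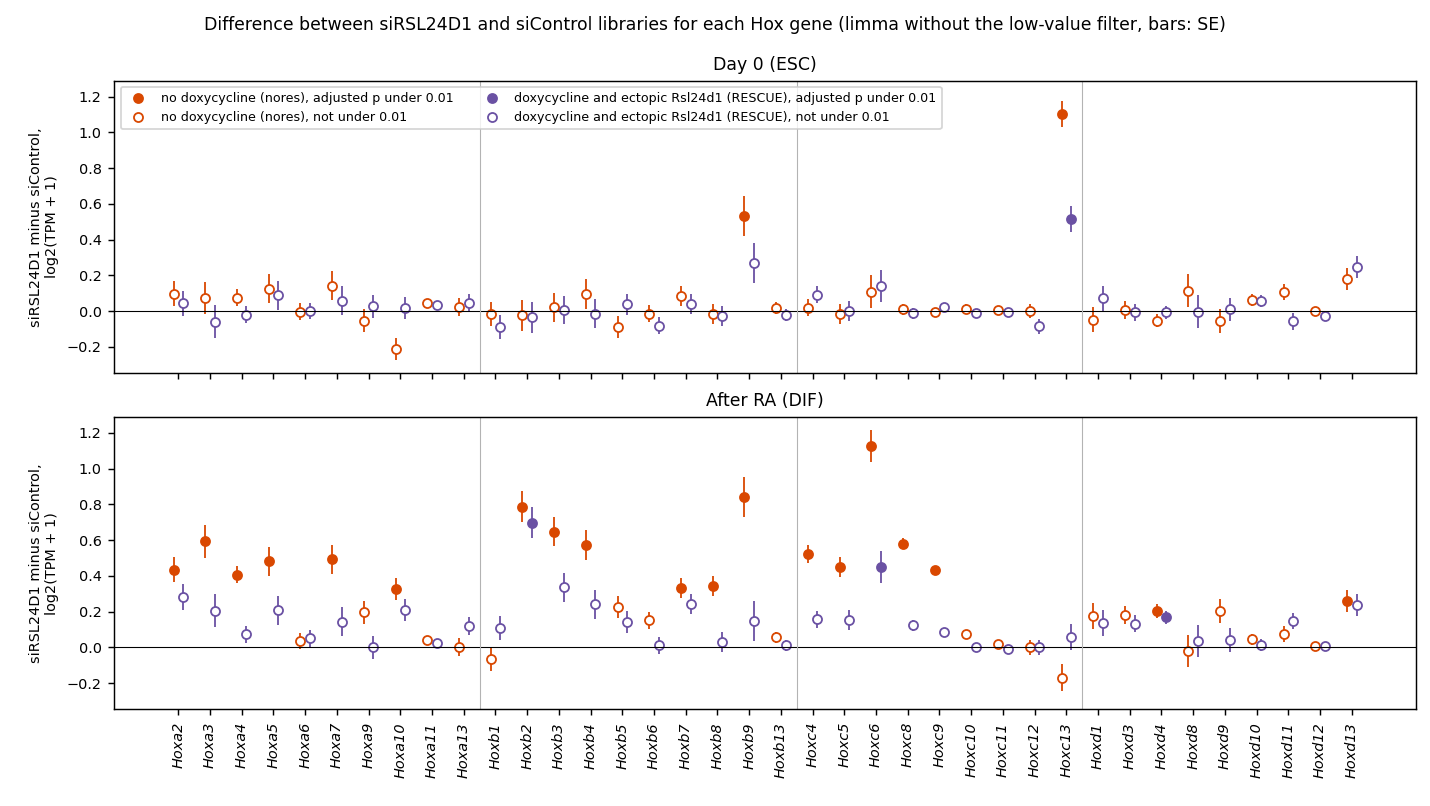
Log2 difference of siRSL24D1 minus siControl with its standard error, from the limma fit without filter, for 38 Hox genes before RA (upper panel) and after RA (lower panel), in orange without rescue (nores) and in purple with rescue, with filled points for an adjusted p under 0.01. Before RA, Hoxc13 stands out at 1.10, whereas after RA without rescue 19 genes are filled and all of them lie above 0.

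After RA with the rescue, the difference between the siRNAs was narrower, and the median of the whole table was lower too. It was 0.208 over the 9 tested Hox genes and -0.044 over all tested genes, against 0.483 and 0.129 without rescue. With limma none of the 9 tested genes rose or fell (6 higher at an unadjusted p under 0.05, and 0.693% of all tested genes rose and 0.0365% fell), and Hoxb2 alone was past the adjusted p limit, as 2.33% of all tested genes were upward. Hoxb2 was at 1.75, 1.68 and 2.00 TPM with siControl and 3.99, 3.29 and 3.43 with siRSL24D1 (log2 difference 0.70 (SE 0.08, adjusted p = 1.4e-05)), close to the pair without rescue. With 0.1 in place of 1 added to the TPM it was no longer past the limit. Hoxb9 was at 0.753, 0.776 and 1.16 and 1.33, 1.12 and 0.842 TPM (0.15 (SE 0.11, adjusted p = 0.44)), with overlapping libraries. Without the filter, Hoxb2, Hoxc6 (0.45 (SE 0.09, adjusted p = 0.0052)) and Hoxd4 (0.17 (SE 0.04, adjusted p = 0.0098)) were past the adjusted p limit, upward, where 1.11% of all genes were. Separate upward were 5 of the 9 tested genes (10.8% of all tested genes) and 13 of the 29 untested (4.82%). Downward it was 0 in both sets, where 24.8% of all tested and 3.04% of untested genes were so.

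Set directly against each other, the rescued RA libraries labelled siRSL24D1 held 0.733 times the summed TPM of the 38 genes in the unrescued ones. None of the 9 tested rose or fell (1 higher and 3 lower at an unadjusted p under 0.05, and 0.0426% of all tested genes went each way), and Hoxb9 (-0.71 (SE 0.11, adjusted p = 0.00029)) and Hoxa5 (-0.38 (SE 0.09, adjusted p = 0.0073)) were lower past the adjusted p limit, as 4.23% of tested genes were. Hoxa5 was no longer past it with 0.1 added to the TPM, after median of ratios scaling or with the replicate number as a block (adjusted p = 0.16, 0.013 and 0.012, limma). Without the filter 8 of the 38 were lower and 0 higher (1.71% and 0.397% of all genes), and 5 of the 8 belonged to Hoxc: Hoxc4, Hoxc5, Hoxc6, Hoxc8 and Hoxc9. Hoxc6 was at 1.59, 1.91 and 1.82 TPM without and 0.466, 0.772 and 0.835 with rescue (-0.72 (SE 0.09, adjusted p = 0.00011)), Hoxc8 at 0.551, 0.674 and 0.491 and 0.140, 0.128 and 0.0950 (-0.49 (SE 0.03, adjusted p = 1e-07)). Both were separate, and 10 of the 29 untested genes were separate downward and 2 upward, against 3.6% and 2.76% of all untested genes, beside 3 and 1 of the 9 tested (18.6% and 5.4%). By cluster the sum was 0.509 times for Hoxc, 0.751 for Hoxa and 0.72 for Hoxb, and for Hoxd 1.08 times with overlapping libraries. The test of whether the siRNA difference itself depended on the rescue after RA gave -0.69 (SE 0.15, adjusted p = 0.0053) for Hoxb9, past the adjusted p limit downward, as 8.25% of tested genes were, but not with 0.1 added to the TPM (adjusted p = 0.016) or after median of ratios scaling (adjusted p = 0.017). For Hoxb2 it gave -0.09 (SE 0.12, adjusted p = 0.61). Without filter Hoxa4, Hoxc4, Hoxc6 (-0.68 (SE 0.13, adjusted p = 0.005)), Hoxc8 (-0.46 (SE 0.04, adjusted p = 2.1e-05)) and Hoxc9 were past it downward, but not Hoxb9 (1.83% of all genes). The median in that test was -0.155 over the 9 tested Hox genes and -0.166 over all tested genes, of which 0.0973% rose and 0.413% fell. Without the filter it was -0.088 over the 38 and -0.025 over all genes of that fit. In the median of the 9, the narrowing with the rescue was thus no larger than that of the whole table.

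The marker sums after RA with rescue were 22.2 to 27.4 and 33.1 to 34.3 TPM for extraembryonic endoderm and 121 to 135 and 141 to 152 TPM for fibroblasts, with siControl given before siRSL24D1, and their part in the values above was not tested. In siControl cells the rescue itself went with few differences past the fold limit, though the whole table shifted. None of the 9 tested Hox genes passed any limit on either day with limma, with 0 at an unadjusted p under 0.05 in ESCs and 1 after RA, Hoxa3 (0.23 (SE 0.09, adjusted p = 0.073)). Over all tested genes 0% rose and 0% fell in ESCs, and 0.0365% and 0.0182% after RA. Past the adjusted p limit alone, 0% were higher and 0.0122% lower in ESCs, and 8.85% and 1.34% after RA. The median over all tested genes was shifted by -0.123 in ESCs and 0.091 after RA. The summed Hox TPM was 0.849 times the unrescued value in ESCs, with separate libraries, and 1.05 times after RA, with overlapping ones.

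The siRNA difference was then compared between the days without rescue, which is the same test as comparing the RA responses of the 2 arms. Hoxc13 fell in it (-1.27 (SE 0.11, adjusted p = 2e-08)), against 2.9% of tested genes that rose and 2.71% that fell, with a median of 0.142 over all tested genes. Hoxb2 (0.81 (SE 0.12, adjusted p = 2.3e-05)), Hoxa3 (0.52 (SE 0.13, adjusted p = 0.0031)) and Hoxb4 (0.48 (SE 0.12, adjusted p = 0.003)) were higher past the adjusted p limit only, where 22.1% of tested genes were higher and 8.83% lower. After median of ratios scaling Hoxb4 no longer passed the adjusted p limit, and with 0.1 added to the TPM neither Hoxa3 nor Hoxb4 did. In values, the Hoxc13 means were 0.397 and 2.00 TPM before RA and 0.592 and 0.418 TPM after, siControl first each time, while the Hoxb2 means were 0.107 and 0.0909 TPM before and 1.96 and 4.13 TPM after. Without the filter 13 of the 38 were higher and 1 lower past the adjusted p limit (8.99% and 4.23% of all genes), and Hoxc6 rose (1.02 (SE 0.13, adjusted p = 1.2e-05)), as 1.31% of them did.

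The partners and regulators of Hox genes were taken from lists and counted in the same fits. Of 8 genes for TALE homeodomain proteins, which bind DNA with Hox proteins, 2 rose with RA in siControl cells, where 6.77% of all tested genes did: Meis2 (2.89 (SE 0.09, adjusted p = 1.2e-15)) and Meis1 (2.62 (SE 0.09, adjusted p = 2.1e-15)). Meis1 also rose after RA in the libraries labelled siRSL24D1 against siControl (1.10 (SE 0.09, adjusted p = 1.6e-08)), as 1.45% of all tested genes did. In ESCs 0 of 8 rose or fell with the siRNA. Of 17 genes of RA transport, synthesis, breakdown and reception, 4 rose with RA in siControl cells, among them the binding protein genes Crabp1 (1.15) and Crabp2 (1.31) and the RA hydroxylase gene Cyp26b1 (1.22). Another 4 fell, where 8.24% of all tested genes did, among them the receptor genes Rarg (-2.56) and Rara (-1.53) and Rxrg (-1.07). With the siRNA 0 of 17 rose or fell on either day. The list of upstream regulators of Hox genes (Cdx1, Cdx2, Cdx4, Egr2) had 2 tested members and 0 rose or fell in siControl cells with RA. Of the ParaHox genes 2 of 6 were tested and 0 rose or fell.

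Of 15 Polycomb genes, whose products hold Hox clusters silent, 2 rose with RA in siControl cells, Bmi1 (1.25) and Cbx8 (1.05), and 5 fell (6.77% and 8.24% of all tested genes), among them Phc1 (-2.07), Jarid2 (-1.62) and Pcgf2 (-1.04). With the siRNA in ESCs, Bmi1 (1.15 (SE 0.20, adjusted p = 9.8e-05)) and Phc2 (0.96 (SE 0.08, adjusted p = 4.5e-09)) rose and none fell (3.4% and 0.772% of all tested genes), and after RA 0 of 15 rose or fell. The list of 7 Trithorax and H3K27 demethylase genes, whose products oppose Polycomb, had 0 that rose or fell in any of these 3 comparisons. Ttll6, the neighbour of Hoxb that rose in siRSL24D1 ESCs, was at 4.27, 4.12 and 4.33 TPM with siControl and 3.82, 4.09 and 3.57 in the libraries labelled siRSL24D1 after RA, and it fell in the test of the siRNA difference between the days (adjusted p = 4e-12).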

How the data were processed

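The 24 libraries of CGR8 cells, in 8 groups of 3 by their titles, were analysed from the log2(TPM + 1) table per gene symbol that the authors deposited. It holds no counts, so the depth and the precision it gives are unknown and the count test of the study could not be run. The submitters' notes name STAR 2.7.8a, Salmon 1.4.0 and build GRCh38, while the methods name GRCm38. The labels give a poly-A kit, DMEM and, for ESCs, 48 h in one field and 72 h in another, and the methods a total-RNA kit and GMEM. The table alone does not settle which is right.

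Differences were fitted with limma 3.58.1 (R 4.3.3), one mean per group and moderated variances with a trend on level, two-sided with Benjamini-Hochberg adjustment, for the 16447 genes averaging 0.5 or more on the deposited scale. The limits, adjusted p under 0.01 and over 1.8-fold, are those of the study. An exact permutation test of 3 against 3 cannot go below 0.1 and was not used. The code was tested on simulated data. Alternatives were 0.1 added to the TPM, no filter, median of ratios scaling, the adjusted p alone, the replicate number as a block, and each library left out. Gene positions came from GENCODE (GRCm38) and promoter windows from RefSeq (GRCm38.p6).

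By rule, Hox genes with a group mean of at least 1 on the log2 scale were named with values. Values per library were given for those called with the siRNA, the rescue or an interaction and for the 10 with the largest RA response in unrescued siControl cells, and up to 3 called genes per direction were named from each list. Library values of Hoxb9, Hoxc6, Hoxc8, Hoxc9, Hoxd13, Ttll6 and the noncoding genes, and the other Hox genes named below that mean, were chosen after their values were seen. The Hox genes and all lists were chosen with earlier results of these data known. Some of their members are not reported here and enter none of the counts and sums over Hox genes and lists.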

Additional observations from a re-analysis of the deposited data

Results flagged for a closer look

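The siRNA difference of some Hox genes differed between the days or between the arms when the difference itself was tested with limma across all genes. Groups of 3 were not tested for single libraries that stand apart. Set after RA against ESCs without rescue, the siRNA difference was lower for Hoxc13, with a log2 value of -1.27 (adjusted p = 2e-08). It was higher with 0.81 (adjusted p = 2.3e-05) for Hoxb2, 0.52 (adjusted p = 0.0031) for Hoxa3 and 0.48 (adjusted p = 0.003) for Hoxb4. Of these, Hoxc13 alone also passed the fold limit. With 0.1 added to the TPM, Hoxa3 and Hoxb4 were no longer past the adjusted p limit, and Hoxb4 was not after median of ratios scaling. With the rescue against without, it was lower in ESCs with -0.59 (adjusted p = 0.0027) for Hoxc13. After RA it was lower with -0.69 (adjusted p = 0.0053) for Hoxb9. Neither of these passed the fold limit. With 0.1 added to the TPM neither passed the adjusted p limit, and Hoxb9 did not without the filter or after median of ratios scaling either (-0.57).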

How the results depend on the processing

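The depth behind the values is unknown and most Hox genes lay under 1 TPM, which limits what a difference can show. No called value changed its sign under any alternative run. With 0.1 in place of 1 added to the TPM, 2 Hox genes rose with the siRNA in ESCs (Hoxb9 beside Hoxc13), 1 in rescue ESCs (Hoxc13) and 4 after RA without rescue (Hoxa3, Hoxb2, Hoxb4, Hoxb9). With the rescue, 1 then fell in siRSL24D1 ESCs (Hoxc13) and 1 after RA (Hoxb9), and 2 passed in the siRNA by day test (Hoxb2 beside Hoxc13). The share of all genes called with 0.1 added was not counted. With the adjusted p alone, which drops the fold limit, the counts were 7 for RA in the siControl rescue, 2 for the siRNA in ESCs and 1 in rescue ESCs, 7 for the siRNA after RA without rescue and 1 with it, 2 for the rescue in siRSL24D1 cells on each day, 4 in the siRNA by day test and 1 in the siRNA by rescue test on each day. With 0.1 added, Hoxb9 in the RA response of siRSL24D1 cells, Hoxa2 and Hoxa5 in the siRNA difference after RA and Hoxb2 in that with rescue were no longer past the adjusted p limit, beside the losses named with their results. Without the filter, Hoxc6, which the filter had held back, made 1 for the siRNA after RA and 2 in the siRNA by day test. Apart from the dropped limit and filter, the cause was not tested.

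Leaving out 1 library at a time gave 0 to 2 for the siRNA after RA without rescue, by the libraries named above. It gave 1 to 2 in the siRNA by day test, 2 with Hoxb2 (0.85 and 0.90) without replicate 1 of the siRSL24D1 ESCs or replicate 3 of siRSL24D1 after RA. Among values of single genes, 372 stayed on their side of the limits, 9 passed them and 4 no longer did, which were the RA responses of Hoxa3 and Hoxb4 described above. Runs where a gene dropped under the filter, and so was not called, are not among these. Hoxa2 stayed tested in 3 of 6 runs for RA in siRSL24D1 cells without rescue and for the siRNA after RA. For RA in the siRSL24D1 rescue it was 4 of 6. Hoxa5 stayed tested in 5 of 6 for RA in siRSL24D1 cells, the siRNA after RA and the rescue after RA. Hox genes called for RA in siRSL24D1 cells numbered 4 to 7, against 6 with all libraries.

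No pairing of the libraries by replicate number was seen in the deposited values. The study used paired t tests for its gene signatures, and how its replicates were paired is not described. Deviations from the group means correlated at -0.017 on average for 84 pairs of the same number and 0.0087 for 168 pairs of different numbers. With the number as a replicate block the counts stayed at 4 for RA and 1 for the siRNA in ESCs, both without rescue, and 1 in the siRNA by day test, and no count of genes that rose or fell changed. Of the single genes past the adjusted p limit, Hoxa5 alone was no longer past it, in the rescue comparison after RA (adjusted p = 0.012 with the block).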

Other observations

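Noncoding genes inside the clusters also changed with RA. Of 17 listed, 5 passed the filter on low values. Hotairm1 rose with RA in siControl cells (1.37 (SE 0.30, adjusted p = 0.00043)), and Hoxaas2 (0.98 (SE 0.09, adjusted p = 7.1e-09)) and Hoxb3os (1.13 (SE 0.06, adjusted p = 8.1e-12)) rose in the libraries labelled siRSL24D1, each log2 difference from limma. After RA, Hoxb3os was at 0.742, 0.599 and 0.846 TPM with siControl and 1.43, 1.33 and 1.20 TPM in the libraries labelled siRSL24D1, in separate groups, and passed the adjusted p limit only (0.42 (SE 0.06, adjusted p = 5.4e-05)). Its exons face those of Hoxb2 and Hoxb3 on the other strand, and those of Hoxaas2 face Hoxa3. Hotairm1 was at 6.22, 5.83 and 7.13 and 12.3, 8.82 and 9.33 TPM, also separate, and did not pass the limit (0.58 (SE 0.30, adjusted p = 0.12)).

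Of the 14 tested neighbours of the clusters, 0 rose or fell with RA in siControl cells without rescue. In the libraries labelled siRSL24D1, Calcoco2 rose (1.09 (SE 0.04, adjusted p = 4.1e-14)) and Ttll6 fell (-1.62 (SE 0.06, adjusted p = 3e-14)). The 4 definitive endoderm markers summed to 3.46 to 4.69 TPM after RA with siControl and 4.71 to 6.47 in the libraries labelled siRSL24D1, with Foxa2 under 1 TPM in both.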
